A study of Caenorhabditis elegans with 26 samples.

Results

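The fatty acid desaturases of Caenorhabditis elegans are the 7 genes fat-1 to fat-7, which were picked by symbol out of the 42533 rows of a table of read counts. All 7 had a row and all 7 passed the filter on low counts, which left 13315 genes. Their enzymes sit in the membrane of the endoplasmic reticulum and put double bonds into fatty acids. FAT-5, FAT-6 and FAT-7 make the first double bond, FAT-5 mainly in palmitic acid and FAT-6 and FAT-7 in stearic acid, which becomes oleic acid. FAT-2 turns oleic acid into linoleic acid, FAT-1 is the omega-3 desaturase, and FAT-3 and FAT-4 add the double bonds nearest to the carboxyl end of the long polyunsaturated chains. The nuclear receptors NHR-49 and NHR-80, the mediator subunit MDT-15 and the sterol regulatory protein SBP-1 are known to control fat-5, fat-6 and fat-7, and the intestine is a main site of their expression.

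Poly(A) RNA came from pools of 200 to 500 whole worms at day 1 of adulthood, in 26 libraries. The 5 strains differ in the gene flp-17, whose neuropeptide is known from the BAG sensory neurons. The zcls4 reporter, GFP under the hsp-4 promoter, is in every strain, the control included. AEF276 adds flp-17(n4894) (n = 5). AEF378 holds the array ashEx67 with flp-17::GFP under the gcy-31 promoter, which is active in BAG neurons, and the marker coel::RFP (n = 5). AEF373 holds an array of untagged flp-17 with the promoter and 3' untranslated region of flp-17 and the marker unc-122p::mCherry (n = 5), and was freed of a flp-17 null background while it was crossed into AEF231. AEF149 holds the array ssrEx1193 with flp-17::GFP under the flp-17 promoter and the marker myo-3p:mCherry (n = 5), in the SJ4005 background. AEF231 holds the reporter alone, after 6 outcrosses of SJ4005 to N2 (n = 6), and is the background of the other strains except AEF149. The arrays are extrachromosomal and not every animal carries one, so 24 h before collection the 3 array strains were sorted for their marker, while AEF276 and AEF231 were washed and replated. Array and sorting cannot be told apart against AEF231, and flp-17 and background cannot be told apart in AEF149. Batch 2 held 2 libraries each of AEF378, AEF373 and AEF231, and batch 1 held the other 20.

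Library totals lay between 9659877 and 15528669 counts, of which the desaturase genes took 0.156% to 0.242%. flp-17 averaged 0.310 CPM (the gene's count scaled to the library total, as edgeR computes CPM with TMM factors) in AEF276 (0 to 8 counts a library), 7.59 CPM in AEF378, 301 CPM in AEF373, 388 CPM in AEF149 and 3.80 CPM in AEF231. All 14 intestine markers that passed the filter, of 15 listed, were read in every library, with at least 22 counts. The labels number the replicates without naming separate cultures, and the p-values thus refer to the spread between these libraries, which may be technical.

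In this genome 5 of the 7 genes lie on chromosome IV and 2 on chromosome V (WBcel235, the assembly of ce11). fat-4 (WBGene00001396, IV, 9799429 to 9802226, plus strand) ends 796 bases before fat-3 (WBGene00001395, IV, 9803023 to 9806119, plus strand). fat-1 (WBGene00001393, IV, 13315644 to 13318811, plus strand) and fat-2 (WBGene00001394, IV, 13323873 to 13326395, plus strand) are 5061 bases apart with no protein-coding gene between them. fat-6 (WBGene00001398) is at IV, 11913692 to 11915687, on the minus strand. fat-7 (WBGene00001399) is at V, 7151353 to 7153146, also on the minus strand, and fat-5 (WBGene00001397) at V, 17725004 to 17726818, on the plus strand. The exons of fat-5 share 28 bases with those of twk-42 on the opposite strand, and the other 6 genes overlap no annotated exon. The proteins of fat-6 and fat-7 are similar, so that reads could be shared between them in a way that the counts do not show.

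Per kilobase of annotated exon, fat-2 had the highest level of the family in each strain and fat-3 the lowest. In AEF373 fat-2 stood at 548 CPM per kilobase and fat-3 at 43.9, against 383 and 49.1 in AEF231. The sum over the family was 1663 ± 172 CPM per kilobase in AEF373, 1542 ± 53.6 in AEF378, 1238 ± 43.6 in AEF149 and 1306 ± 51.1 in AEF276, against 1310 ± 32.4 in AEF231 (SD, n = 5 each, 6 in AEF231). The lowest libraries of AEF373 and AEF378, at 1464 and 1491, were above the highest of AEF231, at 1368. The sums were not tested.

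**Figure D1:**
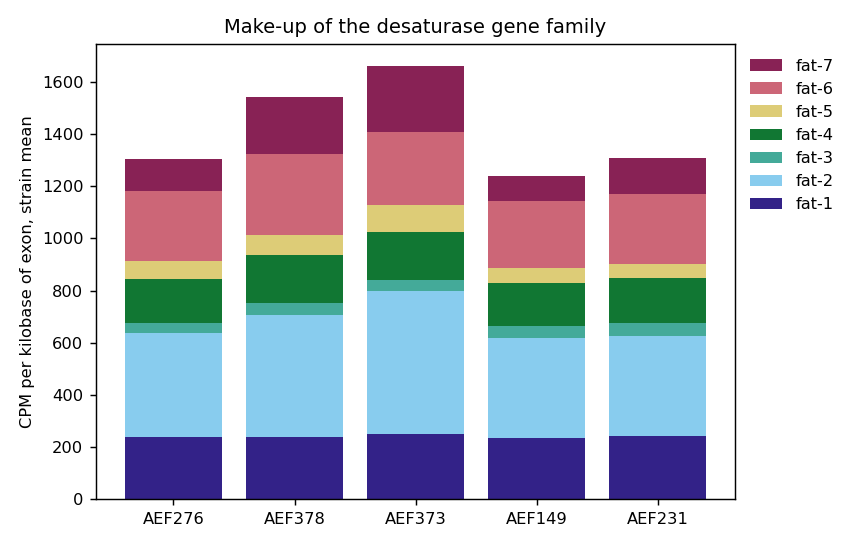
Strain means of the 7 desaturase genes in CPM per kilobase of annotated exon, stacked by gene for each of the 5 strains. fat-2 fills the largest part of each bar, and the fat-7 part is 254.6 in AEF373, 218.0 in AEF378 and 140.3 in AEF231.

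The largest changes of the family against AEF231 were those of fat-7, fat-5 and fat-2. fat-7 had 313.9, 322.3, 282.3, 267.2 and 247.7 CPM in AEF373 and 240.7, 220.2, 218.9, 252.4 and 295.2 in AEF378. In AEF149 it had 96.7, 113, 107, 102 and 117 CPM, and in AEF276 148, 144, 141, 121 and 148 CPM. AEF231 ranged between 141.9 and 185.5 CPM with a median of 150.6. All AEF373 and AEF378 libraries were above all AEF231 libraries, all AEF149 libraries were below them, and those of AEF276 overlapped them. Relative to AEF231 the log2 fold change was 0.86 ± 0.08 (SE) in AEF373, 0.63 ± 0.08 in AEF378 and -0.52 ± 0.09 in AEF149, or 1.81, 1.55 and 0.698 times the control level. By the quasi-likelihood test of edgeR, adjusted over all genes after Benjamini and Hochberg, the adjusted p of these changes was 3.40e-09, 4.14e-06 and 6.74e-05. In AEF276 the change was -0.13 ± 0.08 (edgeR adjusted p = 0.303). Ordered by mean level, fat-7 ran AEF373, AEF378, AEF231, AEF276, AEF149, with overlapping libraries between AEF373 and AEF378 and between AEF231 and AEF276. AEF149, which had the most flp-17 reads, thus had the least fat-7, and AEF373, next in flp-17, had the most.

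**Figure D2:**
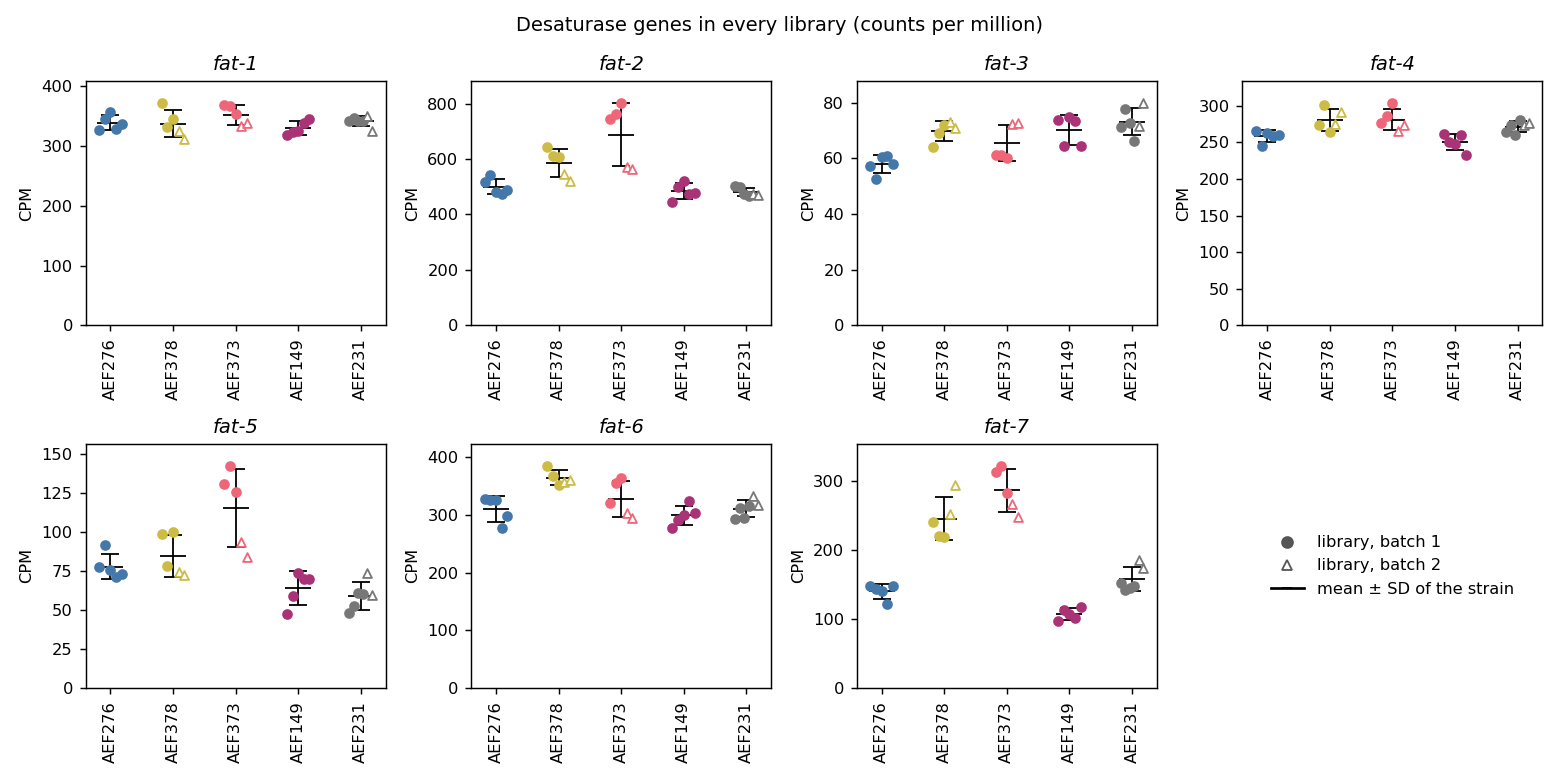
Level of each desaturase gene in CPM in every library of the 5 strains, with filled circles for batch 1, open triangles for batch 2 and black bars for the mean and SD of a strain. fat-7 lies between 96.7 and 117 in AEF149 and above 218 in AEF378 and AEF373, while the strains overlap in fat-1 throughout.

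fat-6, the other stearoyl-CoA desaturase gene, changed less. It had 384.5, 366.9, 351.1, 357.3 and 360.4 CPM in AEF378, above the 292.7 to 331.9 of AEF231 (median 313.6) in each library. The log2 fold change was 0.23 ± 0.05 (edgeR adjusted p = 0.00231), which is 1.18 times the control level. It was 0.08 ± 0.05 in AEF373 (294.9 to 363.5 CPM), -0.07 ± 0.06 in AEF149 (277.8 to 323.5 CPM) and -0.01 ± 0.06 in AEF276 (276.2 to 327.8 CPM), at edgeR adjusted p of 0.272, 0.458 and 0.895. In AEF373 fat-6 passed with batch 1 libraries alone, at 0.19, and with scaling to library totals, at 0.14 (edgeR adjusted p = 0.0201 and 0.0449). The balance within the pair differed between strains. fat-7 made up 49.4, 47.6, 43.7, 46.9 and 45.7% of the fat-6 and fat-7 counts in AEF373 and 38.5, 37.5, 38.4, 41.4 and 45.0% in AEF378. It made up 25.8, 28.1, 26.3, 24.0 and 27.9% in AEF149 and 30.3 to 33.1% in AEF276, against 31.3 to 35.9% in AEF231. AEF373 and AEF378 libraries were above, and AEF149 libraries below, each AEF231 library. With the counts of the pair summed, which takes away the question of which gene a shared read belongs to, log2 changes of 0.39 in AEF373, 0.38 in AEF378, -0.20 in AEF149 and -0.05 in AEF276 were found (edgeR adjusted p = 6.39e-07, 6.05e-06, 0.0144 and 0.610).

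**Figure D3:**
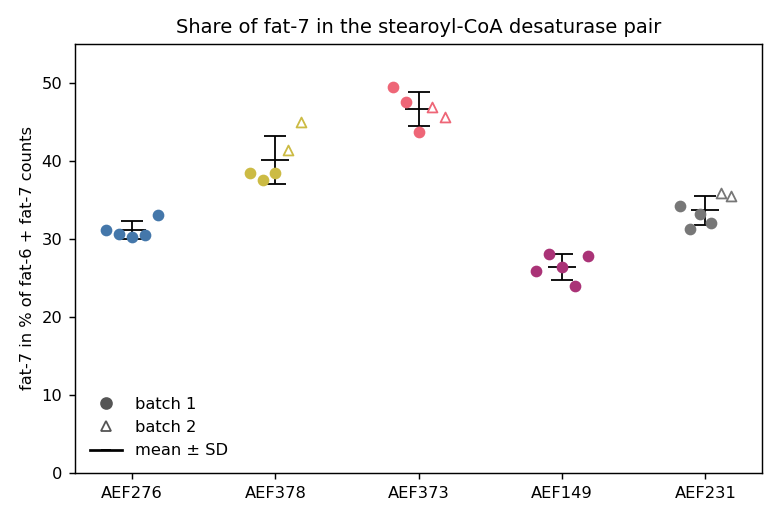
Share of fat-7 in the counts of fat-6 and fat-7 together, in percent, for every library, with filled circles for batch 1, open triangles for batch 2 and black bars for the mean and SD of a strain. The mean share is 46.7% in AEF373, 40.2% in AEF378, 26.4% in AEF149 and 33.7% in AEF231.

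fat-5, the palmitoyl-CoA desaturase gene, was highest in AEF373. It had 131, 143, 126, 94.1 and 84.1 CPM there and 99.2, 78.5, 99.9, 74.5 and 72.3 in AEF378, against 47.9 to 73.6 in AEF231 (median 60.2). AEF373 lay above the control in each library, and AEF378 in 4 of 5. The log2 fold changes were 0.95 ± 0.14 in AEF373 and 0.52 ± 0.14 in AEF378 (edgeR adjusted p = 1.38e-05 and 0.0166), or 1.94 and 1.43 times. In AEF276 fat-5 had 77.8, 91.6, 75.8, 71.5 and 73.1 CPM, at 0.32 ± 0.15 (edgeR adjusted p = 0.128). AEF276 has no library in batch 2, and set against the 4 AEF231 libraries of batch 1, at 47.9 to 60.9 CPM, the change in AEF276 was 0.48 (edgeR adjusted p = 0.0142). It also passed without AEF231 replicate 5, at 0.38 (edgeR adjusted p = 0.0471). AEF149 overlapped the control, with 47.7 to 73.9 CPM and 0.03 ± 0.15 (edgeR adjusted p = 0.925).

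fat-2, whose enzyme opens the way from oleic acid to the polyunsaturated fatty acids, rose in the same 2 array strains. It had 743, 763, 801, 569 and 564 CPM in AEF373 and 645, 610.1, 608, 546 and 522 in AEF378, against 465 to 503 in AEF231 (median 474). No library of either strain overlapped the control. The log2 fold changes were 0.52 ± 0.06 in AEF373 and 0.29 ± 0.06 in AEF378 (edgeR adjusted p = 8.83e-10 and 0.000230), or 1.43 and 1.23 times. AEF276, with 474 to 541 CPM, and AEF149, with 445 to 522, overlapped the control, at -0.02 ± 0.06 and -0.07 ± 0.06 (edgeR adjusted p = 0.845 and 0.484). Their means, 500 and 484 CPM, were above the 481 CPM of AEF231. The negative signs come with the batch term, and both changes turned positive with batch 1 libraries alone.

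fat-3, which encodes a desaturase acting on linoleic acid, was the member that fell in the loss-of-function strain. It had 57.3, 52.7, 60.6, 60.7 and 57.8 CPM in AEF276, all below the 66.4 to 79.8 of AEF231 (median 72.1). The log2 fold change was -0.30 ± 0.06 (edgeR adjusted p = 0.000353), or 0.813 times. Germ line markers moved in AEF276 too, where 20.3% of all genes were called in either direction. Of 13 sperm markers 12 were called lower, with a summed level of 3.63 to 7.33 CPM in AEF276 against 48.0 to 103 CPM in AEF231. Of 15 oogenic markers 10 were called higher. With these 15 oogenic and 13 sperm markers kept out of the scaling, the fat-3 change was -0.33 (edgeR adjusted p = 8.87e-05). All other genes stayed in the scaling, so the part of germ line make-up in the fat-3 change was not tested. In AEF373 fat-3 had 61.1, 61.3, 60.3, 72.3 and 72.8 CPM, with the 3 batch 1 libraries below the control and the 2 batch 2 libraries within it. The change there was -0.17 ± 0.06 (edgeR adjusted p = 0.0152). That call ended without AEF373 replicates 1 or 3 or AEF231 replicates 2 or 6, at edgeR adjusted p between 0.0550 and 0.0749, and with scaling to library totals, at -0.11 (edgeR adjusted p = 0.177). AEF378 and AEF149 overlapped AEF231, at -0.08 ± 0.06 and -0.02 ± 0.06 (edgeR adjusted p = 0.393 and 0.890).

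fat-1 and fat-4, which encode the omega-3 desaturase and the one that makes arachidonic and eicosapentaenoic acid, passed the edgeR or the DESeq2 test against AEF231 in no strain, and 1 of these 8 changes had an unadjusted edgeR p below 0.05 (fat-4 in AEF149). fat-1 passed in AEF373 with scaling to library totals, at 0.11 (edgeR adjusted p = 0.0338). fat-1 means lay between 330.2 and 352 CPM over the 5 strains, and its log2 fold changes between -0.08 ± 0.05 in AEF149 and 0.05 ± 0.04 in AEF373. fat-4 means lay between 250.8 and 281 CPM. Its lowest change was -0.12 ± 0.05 in AEF149 (edgeR adjusted p = 0.0742). Of the 2 neighbouring pairs, 1 member passed and the other did not in AEF276 (fat-3 at -0.30 ± 0.06, fat-4 at -0.08 ± 0.05, edgeR adjusted p = 0.270) and in AEF373 (fat-2 at 0.52 ± 0.06, fat-1 at 0.05 ± 0.04, edgeR adjusted p = 0.406). Whether the neighbours differ was not tested.

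Counted by strain, 4 of the 7 genes passed the test in AEF378, all higher (fat-2, fat-5, fat-6 and fat-7), where 13.6% of the 13315 genes were called in either direction. In AEF373 4 passed, 3 of them higher and 1 lower, where 34.8% of all genes were called. In AEF149 1 passed, fat-7, where 17.5% were called, and in AEF276 1 passed, fat-3, where 20.3% were called, so that 1 of 7 is near the background share in both. The libraries of fat-2, fat-6 and fat-7 were above AEF231 with no overlap in AEF378, as for 3.33% of genes, and those of fat-2, fat-5 and fat-7 in AEF373, as for 7.97%. Those of fat-7 in AEF149 and of fat-3 in AEF276 were below AEF231 with no overlap, as for 7.91% and 5.56% of genes. Median log2 fold changes over the 7 genes were 0.23 in AEF378, 0.08 in AEF373, -0.07 in AEF149 and -0.04 in AEF276, while the medians over all genes tested lay between -0.01 and 0.01. These comparisons share the AEF231 libraries.

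**Figure D4:**
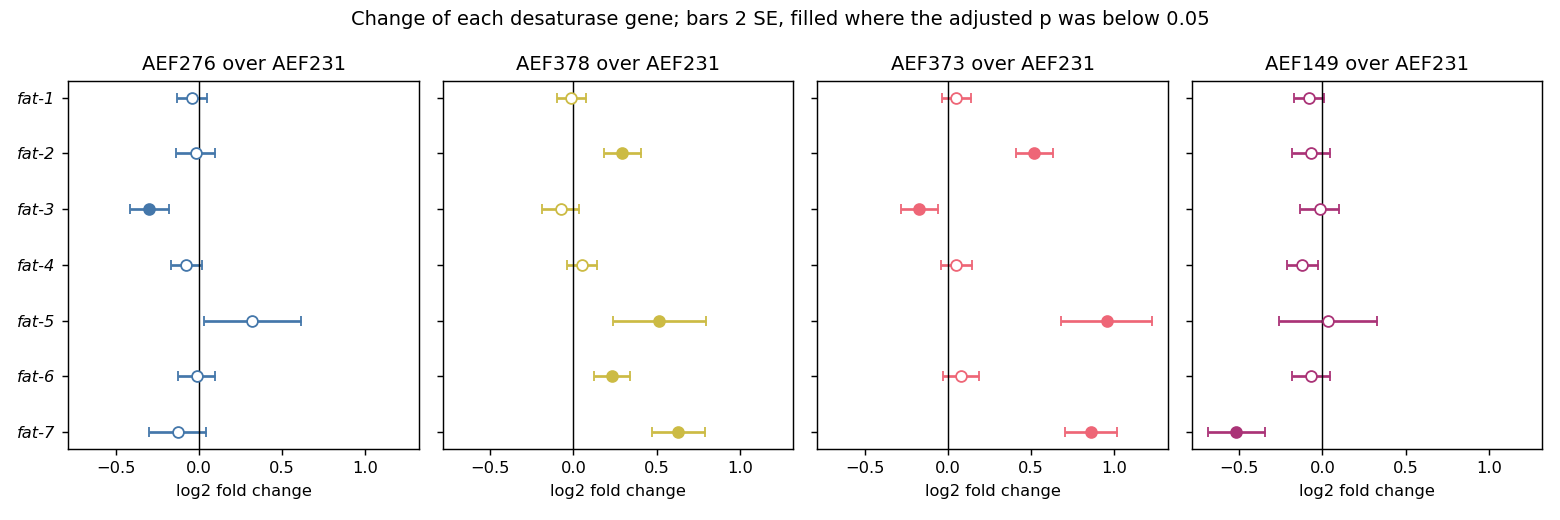
Log2 fold change of each desaturase gene over AEF231 in AEF276, AEF378, AEF373 and AEF149, with bars of 2 SE and filled points where the edgeR adjusted p was below 0.05. fat-7 is at 0.86 in AEF373, 0.63 in AEF378 and -0.52 in AEF149.

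The rises in AEF373 were larger in batch 1 than in batch 2. With batch 1 libraries alone the log2 fold changes were 1.05 for fat-7, 1.26 for fat-5 and 0.66 for fat-2 (edgeR adjusted p = 1.25e-15, 7.39e-07 and 6.13e-11). With batch 2 libraries alone they were 0.52, 0.42 and 0.27 (edgeR adjusted p = 0.000208, 0.00566 and 0.0897). The difference between the batches itself, batch 2 minus batch 1, was -0.56 for fat-7, -0.87 for fat-5 and -0.42 for fat-2 (edgeR adjusted p = 0.0106, 0.00435 and 0.0456), and 62 of 12999 genes passed that test. In AEF378 fat-7 changed by 0.61 in batch 1 and 0.62 in batch 2 (edgeR adjusted p = 2.62e-08 and 3.22e-05). There fat-5 was at 0.72 and 0.15 (edgeR adjusted p = 0.00222 and 0.516), fat-2 at 0.34 and 0.18 (0.000289 and 0.344) and fat-6 at 0.26 and 0.16 (0.00712 and 0.400). None of these differed between batches in AEF378 by edgeR's test (adjusted p at least 0.287; unadjusted p = 0.000531 for fat-5). Batch 2 had 2 libraries a strain. Those of AEF231, replicates 5 and 6, carry the same group number, 5, in the labels, which is not explained.

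**Figure D5:**
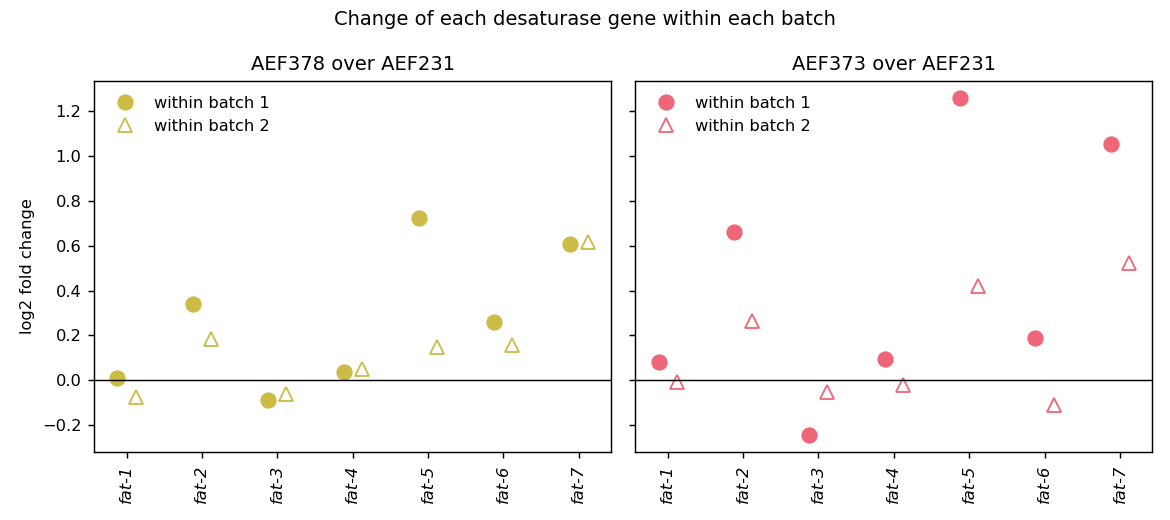
Log2 fold change over AEF231 of each desaturase gene in AEF378 and AEF373, with batch 1 libraries alone (filled circles) and batch 2 libraries alone (open triangles). In AEF373 fat-5 is at 1.26 and 0.42 and fat-7 at 1.05 and 0.52, while fat-7 in AEF378 is at 0.61 and 0.62.

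The array strains, which were all sorted, were set against one another. AEF149 and AEF373 both express flp-17 from its own promoter, and differ in the tag, the marker and the background. They also differ in the flp-17 level, at a log2 change of 0.37 ± 0.11 (edgeR adjusted p = 0.0116). Batch differs as well, since AEF149 has no library in batch 2. AEF149 was lower than AEF373 in fat-7 at -1.38 ± 0.09, in fat-5 at -0.92 ± 0.15, in fat-2 at -0.59 ± 0.06 and in fat-4 at -0.17 ± 0.05 (edgeR adjusted p = 2.49e-12, 6.03e-05, 3.33e-10 and 0.00719). No library of AEF149 overlapped one of AEF373 in these 4 genes, as for 10.2% of all genes on the lower side. In all, 7 of 7 passed, 6 of them lower, where 32.3% of genes were called in either direction. The other 3 calls were near the threshold, fat-1 at -0.13 ± 0.05, fat-6 at -0.15 ± 0.06 and fat-3 at 0.15 ± 0.06 (edgeR adjusted p = 0.0362, 0.0498 and 0.0497). The fat-1 call ended without any 1 of AEF373 replicates 1 and 2, AEF149 replicates 1, 2 and 3 and AEF231 replicate 5, at adjusted p up to 0.0878. The fat-3 call ended without any 1 of AEF276 replicates 3 and 5, AEF378 replicates 1 and 4, AEF373 replicates 1, 2 and 3, AEF149 replicates 1, 3 and 4 and AEF231 replicates 3, 4 and 6, at up to 0.131. The fat-6 call ended without any 1 of AEF276 replicates 2, 3 and 5, AEF378 replicates 1 and 4, AEF373 replicates 1, 2 and 3, AEF149 replicates 1, 2, 3 and 5 and AEF231 replicates 1, 2, 5 and 6, at up to 0.230.

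AEF378 against AEF373, which share a background and differ by far in flp-17, gave 1 call. The 2 strains differ also in the promoter, the tag and the marker, which cannot be told apart from the flp-17 level. fat-2 was lower in AEF378 at -0.22 ± 0.06 (edgeR adjusted p = 0.00815), where 9.60% of genes were called in either direction, and it did not pass without a batch term (adjusted p = 0.0512). fat-5 was at -0.44 ± 0.14, fat-7 at -0.23 ± 0.08 and fat-6 at 0.15 ± 0.06 (edgeR adjusted p = 0.0541, 0.0775 and 0.0752). fat-5 passed without AEF276 replicate 2, AEF373 replicates 4 or 5, AEF149 replicate 1 or AEF231 replicates 1, 2 or 5, at adjusted p between 0.0213 and 0.0496. fat-7 passed without AEF378 replicate 5 or AEF373 replicates 4 or 5, at 0.00708 to 0.0348, and fat-6 without AEF373 replicate 3, at 0.0398. Within batch 1 fat-7 was at -0.45 and within batch 2 at 0.09 (edgeR adjusted p = 2.57e-05 and 0.782). A miss of the threshold does not show that these genes had equal levels in AEF378 and AEF373.

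Desaturases receive their substrates from fatty acid synthesis and exchange them with the elongases, so genes of those steps were counted in the same fit. The counts of this and the next 5 lists stand beside shares over all genes of 13.6% in AEF378, 34.8% in AEF373, 17.5% in AEF149 and 20.3% in AEF276, called in either direction. In AEF149, 0 of 10 tested elongation genes were higher and 6 lower, with a median log2 fold change of -0.22. Among them elo-6, an elongase gene of branched-chain fatty acid synthesis, was at -0.53 ± 0.08, let-767, a reductase gene of the elongation cycle, at -0.30 ± 0.05 and art-1, an enoyl-CoA reductase gene, at -0.28 ± 0.05 (edgeR adjusted p = 3.23e-05, 1.19e-05 and 1.57e-05). elo-1 and elo-2, whose elongases act on polyunsaturated and saturated chains and which were picked for that role after their values were seen, were at -0.28 ± 0.04 and -0.23 ± 0.07 (edgeR adjusted p = 7.14e-06 and 0.0192). In AEF373 1 of the 10 was higher and 2 lower, with elo-5 at 0.17 ± 0.07, elo-3 at -0.18 ± 0.05 and elo-1 at -0.15 ± 0.04 (edgeR adjusted p = 0.0433, 0.00663 and 0.00406). AEF378 had 1 higher, elo-5 at 0.25 ± 0.07 (edgeR adjusted p = 0.00953), and AEF276 had 0 in either direction.

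The fatty acid synthase gene fasn-1 changed in the 3 array strains. It rose in AEF373 at 0.32 ± 0.04 and in AEF378 at 0.15 ± 0.04 and fell in AEF149 at -0.20 ± 0.05 (edgeR adjusted p = 2.54e-07, 0.0173 and 0.00131). pod-2, the acetyl-CoA carboxylase gene, was at 0.34 ± 0.08 in AEF373 and -0.24 ± 0.09 in AEF149 (edgeR adjusted p = 0.00159 and 0.0482). Of the 5 synthesis genes 2 rose in AEF373, 1 rose in AEF378, 2 fell in AEF149 and 2 rose in AEF276. Those of AEF276 were the ATP citrate lyase genes acly-1 at 0.24 ± 0.06 and acly-2 at 0.25 ± 0.06 (edgeR adjusted p = 0.00475 and 0.00135).

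Of 18 known regulators of these genes and of membrane fluidity, 1 was higher in AEF378, 3 higher and 2 lower in AEF373, 1 higher and 1 lower in AEF149 and 6 higher and 0 lower in AEF276. In AEF378, AEF373 and AEF149 these counts are below the share over all genes, and so are no result about the regulators as a group. sbp-1 rose in AEF378 at 0.26 ± 0.09, with a mean of 36.9 ± 2.98 CPM against 30.6 ± 3.65 CPM in AEF231 (SD, n = 5 and 6; edgeR adjusted p = 0.0419). In AEF373 sbp-1 was at 0.20 ± 0.09 and did not pass (edgeR adjusted p = 0.0825). AEF378 against AEF373 was at 0.07 ± 0.09 (edgeR adjusted p = 0.729), so the rise is not particular to AEF378. mdt-15 fell in AEF149 at -0.15 ± 0.05 (edgeR adjusted p = 0.0286). In AEF373 the nuclear receptor gene nhr-62 was at 0.43 ± 0.17, while the adiponectin receptor homologue gene paqr-1 was at -0.21 ± 0.05 and iglr-2, a gene of membrane fluidity control, at -0.16 ± 0.05 (edgeR adjusted p = 0.0453, 0.000726 and 0.0131). scp-1, the homologue of the SREBP escort protein SCAP, rose in AEF149 at 0.24 ± 0.06 and in AEF276 at 0.24 ± 0.06, and the nuclear receptor gene nhr-13 and the elongation factor gene tcer-1 rose in AEF276 at 0.29 ± 0.09 and 0.21 ± 0.06 (edgeR adjusted p = 0.00217, 0.00343, 0.0267 and 0.0115). nhr-49, picked for its role after its values were seen, stayed between -0.10 ± 0.05 in AEF149 and 0.01 ± 0.05 in AEF276 and passed in no strain against AEF231 (edgeR adjusted p at least 0.145). nhr-80, picked the same way, also passed in no strain against AEF231 (edgeR adjusted p at least 0.24). In AEF149 against AEF373 nhr-80 was at -0.35 ± 0.13 (edgeR adjusted p = 0.0381). The electron carriers of the desaturases gave 1 call each in AEF378 and AEF149 among 3 tested genes, the cytochrome b5 gene cytb-5.1 at 0.23 ± 0.07 and the reductase gene hpo-19 at -0.14 ± 0.05 (edgeR adjusted p = 0.0294 and 0.0206).

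In the phosphatidylcholine pathway, which is known to feed back on SBP-1, the choline kinase gene ckb-2 was higher than in AEF231 in each strain. The log2 changes were 0.49 ± 0.10 in AEF378, 0.59 ± 0.10 in AEF373, 0.51 ± 0.11 in AEF149 and 0.41 ± 0.11 in AEF276 (edgeR adjusted p = 0.00170, 6.02e-05, 0.000911 and 0.00748), and these share the AEF231 libraries. pmt-2, a phosphoethanolamine methyltransferase gene, fell in AEF149 at -0.51 ± 0.07, and sams-1, the S-adenosylmethionine synthase gene, fell in AEF276 at -0.26 ± 0.07 (edgeR adjusted p = 2.15e-07 and 0.00860). cept-2, of the last step, was at 0.29 ± 0.05 in AEF149, 0.22 ± 0.05 in AEF276 and -0.21 ± 0.05 in AEF378 (edgeR adjusted p = 7.47e-06, 0.000844 and 0.00139). pmt-1 in AEF373 was at 0.13 ± 0.05 and ckb-4 in AEF378 at 0.38 ± 0.12 (edgeR adjusted p = 0.0347 and 0.0293). Of the 10 genes 2 were higher and 5 lower in AEF149, 2 and 3 in AEF276, 3 and 1 in AEF378, and 2 and 0 in AEF373.

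Of 11 tested genes of triglyceride synthesis, lipid droplets and lipolysis, 4 were higher in AEF276, 1 in AEF378 and 1 in AEF373, while 3 were lower in AEF373 and 4 in AEF149. dgat-2, a diacylglycerol acyltransferase gene, fell in AEF149 at -0.67 ± 0.15, with 16.98 ± 1.89 CPM against 25.4 ± 3.66 in AEF231 (SD, n = 5 and 6; edgeR adjusted p = 0.00168). dhs-3, of a lipid droplet protein, fell in AEF149 at -0.32 ± 0.07 and in AEF373 at -0.20 ± 0.07 (edgeR adjusted p = 0.000988 and 0.0198). The lipase gene lipl-5 fell in AEF373 at -0.29 ± 0.06 and in AEF149 at -0.17 ± 0.06, and acl-4 in AEF373 at -0.15 ± 0.05 (edgeR adjusted p = 0.000125, 0.0363 and 0.0205). In AEF276 the perilipin gene plin-1, the lipase gene atgl-1 and the acyltransferase gene acl-6 rose at 0.21 ± 0.05, 0.21 ± 0.06 and 0.21 ± 0.05 (edgeR adjusted p = 0.00298, 0.00660 and 0.00255).

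Markers of the tissues that express desaturases also differed between strains, and in whole worms fewer cells of a type and less RNA per cell cannot be told apart. The summed level of the 14 intestine markers was 5434 to 6542 CPM in AEF373, 5025 to 5704 in AEF378, 4161 to 4442 in AEF149 and 4344 to 5606 in AEF276, against 4671 to 5739 in AEF231. The sum in AEF149 was below each AEF231 library, as fat-7 was. Set against that sum in each library, a ratio added after the values were seen, fat-7 was at 4.39 to 5.41% in AEF373, 4.22 to 5.18% in AEF378 and 2.32 to 2.63% in AEF149, against 2.69 to 3.72% in AEF231. For fat-7, AEF373 and AEF378 thus stayed above, and AEF149 below, each control library. By the same ratio fat-5 was at 1.49 to 2.39% in AEF373, 1.27 to 1.97% in AEF378 and 1.51 to 1.67% in AEF276, against 0.936 to 1.28% in AEF231, and so overlapped the control in AEF378 and lay above it in AEF373 and AEF276. In CPM fat-5 in AEF276, at 71.5 to 91.6, overlapped the 47.9 to 73.6 of AEF231. The mean marker sum was 4863 CPM in AEF276 against 5162 in AEF231. fat-2, at 9.59 to 14.7% in AEF373 and 9.16 to 11.97% in AEF378, overlapped the 8.27 to 10.1% of AEF231, while at 10.7 to 12.4% in AEF149 it lay above them. fat-6 in AEF378, at 6.32 to 7.11%, overlapped the 5.72 to 6.77% of AEF231. fat-3, at 0.933 to 1.29% in AEF373 and 0.940 to 1.40% in AEF276, overlapped the 1.25 to 1.71% of AEF231. fat-1 in AEF149 was at 7.41 to 8.01%, above the 6.11 to 6.98% of AEF231. In CPM fat-1 and fat-2 overlapped the control in AEF149, at -0.08 ± 0.05 and -0.07 ± 0.06 (edgeR adjusted p = 0.258 and 0.484). With a marker sum below each control library, a gene of unchanged CPM has a higher ratio. The higher ratios of fat-1 and fat-2 in AEF149 thus stand beside CPM that overlapped the control. What they owe to the lower marker sum was not tested. In CPM fat-2 in AEF373 and AEF378, fat-6 in AEF378 and fat-3 in AEF276 had no overlap with the control. As library ranges, these gaps were not kept relative to the intestine marker sum. The mean ratios still differed the same way. For fat-2 they were 11.7% in AEF373 and 11.1% in AEF378 against 9.35% in AEF231. They were also 11.3% in AEF149 and 10.3% in AEF276, where fat-2 was not called. For fat-6 in AEF378 6.89% stood against 6.03% in AEF231. Without a call, fat-6 was at 6.98% in AEF149, 6.41% in AEF276 and 5.57% in AEF373. For fat-3 in AEF276 1.20% stood against 1.43%, with 1.12% in AEF373, 1.32% in AEF378 and 1.64% in AEF149. The mean ratios thus moved in strains without a call as well. The sum is led by few genes: asp-1, asp-3 and cpr-6 averaged 1609, 1018 and 833 CPM of 5162 in AEF231. In AEF373 asp-1 and asp-3 averaged 2050 and 1335 CPM, and cpr-6 734. Of the intestine markers 4 were higher and 3 lower in AEF373, 2 and 1 in AEF378, 1 and 8 in AEF149 and 0 and 5 in AEF276. These and the following marker counts stand beside shares of all genes called in either direction. The shares were 34.8% in AEF373, 13.6% in AEF378, 17.5% in AEF149 and 20.3% in AEF276. The 6 yolk protein genes, which the intestine expresses, summed to 48761 to 55061 CPM in AEF149, below the 56482 to 67617 CPM of AEF231, with 4 called lower. In AEF373 their sum, 50566 to 68332 CPM, overlapped AEF231, and 4 were called lower, vit-1 at -0.86, vit-3 at -0.81, vit-4 at -0.44 and vit-5 at -0.37 (edgeR adjusted p = 3.11e-07, 3.62e-10, 1.90e-07 and 8.26e-05). In AEF378 2 were lower. Epidermis markers summed to 818 to 983 CPM and body wall muscle markers to 3730 to 4003 CPM in AEF149, against 1351 to 2014 and 4705 to 6504 CPM in AEF231. Both sums overlapped AEF231 in the other strains. Body wall muscle markers, 11 in all, had 7 higher in AEF373, 5 higher in AEF378 and 6 lower in AEF276. In AEF149 1 muscle marker was higher and 7 lower. The 10 tested epidermis markers had 2 higher and 2 lower in AEF373 and 1 higher in AEF378. In AEF149 and AEF276 2 each were lower, and these epidermis counts are near the shares over all genes. Of 13 sperm markers 12 were lower in AEF149, at a sum of 9.60 to 19.6 CPM, and 6 in AEF373, at 16.1 to 95.4 CPM, against 48.0 to 103 CPM in AEF231. Of 15 oogenic germ line markers 4 were lower in AEF373, 5 lower in AEF378, 2 higher and 2 lower in AEF149 and 10 higher in AEF276. The count in AEF373 is below the share over all genes. Of 12 neuronal markers 9 were higher in AEF373, 3 in AEF378 and 7 in AEF149. The part of tissue make-up in the changes was not tested, and the ratios are a description only.

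Genes with strain patterns most like those of the called members were looked up among the 10673 tested genes that averaged 2 CPM or more, by the root mean square difference of the 5 centred strain means in log2 units. For fat-7 the nearest were K07A1.6, ifa-4 and lam-3 at 0.13, 0.13 and 0.14, and for fat-5 they were cyp-33C8, ttm-5 and F23D12.3 at 0.03, 0.05 and 0.06. The pattern of fat-2 was nearest to those of C07D10.5, pab-2 and F20D6.10, and that of fat-6 to C32D5.8, T15B7.1 and F54C4.4, all at 0.03 or less. fat-3 was nearest to C48D1.1, asm-2 and tig-3, at 0.03 each. Among the members, fat-2 was the 104th nearest gene to fat-5 at 0.16, and fat-5 the 343rd nearest to fat-7 at 0.31. fat-6 was the 2276th nearest to fat-7, at 0.45.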

How the data were processed

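Whole-number read counts for each gene in each library were deposited by the authors. STAR 2.7.11b and the build ce11 are named in the submitters' processing notes. How reads were counted, with which strand setting and annotation release, is not given in the sources used here. Reads of a gene and of one that overlaps it on the other strand therefore cannot be told apart. Positions and exon lengths come from the Ensembl annotation of WBcel235, which matched 40782 of 42533 symbols.

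Counts were used as deposited. Genes were kept by edgeR's filterByExpr by strain, scaled by TMM and tested with edgeR 4.0.16 (R 4.3.3, robust quasi-likelihood) on the 26 libraries together, strain and batch being terms of the model, with Benjamini-Hochberg adjustment over 13315 genes at 0.05. SE is the log2 fold change over the root of F. Comparisons were 4 against AEF231 and 2 against AEF373, and the fit was tested on simulated data. AEF276 and AEF149 have batch 1 libraries only, so the batch term in their changes was fitted on AEF231, AEF378 and AEF373. That term takes the batch difference to be the same in each strain, which did not hold for fat-2, fat-5 and fat-7 in AEF373. The members had 509 to 10831 counts a library, and the spread between libraries beyond counting noise, the common biological coefficient of variation, was 8.01%. Over 55 replicate pairs the chi-square per gene was 3.20 to 13.9, so libraries of a pair differed by more than counting noise. Each library was therefore counted as 1 sample. The check cannot tell whether libraries came from separate cultures.

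Members and lists were chosen with earlier results of these data known. Named genes are the 7 members, flp-17, up to 3 called genes of at least 2 CPM with the largest change per lipid list and comparison with AEF231, and the 3 nearest genes by strain pattern per called member. Lists were described by counts and medians, with no list test. Alternatives were other size factors, library totals, DESeq2 1.42.0, other filters, batch and replicate terms, single batches, the strains compared alone, no robust weights, a threshold of 0.01, coding length, summed fat-6 and fat-7 counts and each library left out. 1 listed gene, opt-2, had no annotation. Protein and promoter sequences were not analysed here.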

Additional observations from a re-analysis of the deposited data

Results flagged for a closer look

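The change of 3 members in AEF373 against AEF231 differed between the batches by edgeR's test of the difference (batch 2 minus batch 1, log2): fat-2 at -0.42, fat-5 at -0.87 and fat-7 at -0.56, with adjusted p of 0.0456, 0.00435 and 0.0106. fat-5 had 84.1 and 94.1 CPM in the 2 batch 2 libraries of AEF373 and 126 to 143 in the 3 of batch 1, against 59.96 and 73.6 CPM in batch 2 and 47.9 to 60.9 CPM in batch 1 of AEF231.

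Of 35 sets of libraries (7 genes in 5 strains) 2 held a library far from the others, and chance gives about 1 in 20. fat-7 in AEF276 replicate 4 was at 121 CPM, with the other AEF276 libraries at 141 to 148. fat-1 in AEF231 replicate 6 was at 326 CPM, with the others at 342 to 350.4.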

How the results depend on the processing

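Of 18 called changes, 10 of them against AEF231, 0 changed sign in any alternative. The count of called members in AEF149 against AEF231 was 1 in each alternative. In AEF276 it was 1, and 2 (fat-3 and fat-5) with no filter, batch 1 alone or the 2 strains alone, and 1 to 2 with single libraries left out. In AEF378 it was 4, 3 (without fat-5) at a threshold of 0.01, 1 (fat-7) with batch 2 alone, and 4 with any single library left out. In AEF373 it was 4, 3 (without fat-3) at a threshold of 0.01, 2 (fat-5 and fat-7) with batch 2 alone, 5 with batch 1 alone (with fat-6) and with library totals (with fat-1 and fat-6, without fat-3), and 3 to 4 with single libraries left out. In AEF378 against AEF373 the count of 1 became 0 with no batch term or batch 2 alone, 2 with TMM factors without germ line and sperm genes, library totals or the 2 strains alone, and 3 with DESeq2, no filter, batch 1 alone or no robust weights, and 1 to 3 with single libraries left out. In AEF149 against AEF373 the count of 7 became 4 at a threshold of 0.01, with no filter and with no batch term, and was 4 to 7 with single libraries left out. The cause was not tested.

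The replicate numbers do not pair the libraries: over 20 same-numbered pairs with AEF231 the correlation of deviations was -0.25 to 0.14, over 0.1 in 1. With a replicate block, by replicate number or by the labels' group number, 4 members passed in AEF149 against AEF373, and the counts of the other comparisons stayed at 1 or 4; fat-2 in AEF276 turned to 0.011 by replicate number.

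The other sign changes were of values that had not passed. Against AEF231, library totals gave 0.037 for fat-1 in AEF378 and 0.0084, 0.060 and 0.0084 for fat-2, fat-3 and fat-6 in AEF149, where TMM factors without germ line and sperm genes gave 0.0010 for fat-3. No batch term gave 0.056 and 0.0019 for fat-2 and fat-6 in AEF276 and 0.0081 for fat-2 in AEF149. Batch 1 alone gave 0.024 and 0.015 for fat-2 and fat-6 in AEF276, 0.011 for fat-1 in AEF378 and 0.022 and 0.0035 for fat-2 and fat-6 in AEF149. Batch 2 alone gave -0.0071, -0.024 and -0.11 for fat-1, fat-4 and fat-6 in AEF373, and in AEF378 against AEF373 -0.0064, 0.074 and 0.093 for fat-3, fat-4 and fat-7. The 2 strains alone gave 0.0070 for fat-2 in AEF276 and 0.0013 in AEF149. Summed fat-6 and fat-7 counts gave -0.011 for fat-6 in AEF378 against AEF373. With single libraries left out, the ranges were -0.043 to 0.0065 for fat-1 in AEF378, -0.085 to 3.9e-05 for fat-2 and -0.070 to 0.027 for fat-6 in AEF276, -0.042 to 0.037 for fat-3 and -0.031 to 0.14 for fat-5 in AEF149, and -0.034 to 0.025 for fat-4 in AEF378 against AEF373.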
